A study of Bos taurus with 4 samples.

Results

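Transcripts of 10 genes for the use and transport of ketone bodies were followed in day 7 Holstein embryos from cows with high or low blood beta-hydroxybutyrate (BHB). The genes were listed by name: ACAT1, ACAT2, BDH1, BDH2, OXCT1 and AACS for the enzymes, and SLC16A1, SLC16A3, SLC16A6 and SLC16A7 for the transporters. All 16 of their probes were taken, out of 43794 non-control probes, and the 10 genes stand among 15216 with a named probe. In embryos of both groups, probes of ACAT1, ACAT2 and SLC16A1 were above background on all 4 arrays, and AACS and SLC16A6 stood close to the background limit. No probe of BDH1, OXCT1, SLC16A3 or SLC16A7 was above background in either group on any array. Of the 7 probes that were bright enough to test, 0 differed between the groups after adjustment with the 4 arrays as replicates. The lowest mean of the 7 was that of a SLC16A1 probe, at 0.60 times the low BHB level. The other SLC16A1 probes were at 0.79 and 0.93 times.

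BHB and acetoacetate are the ketone bodies that the liver makes from fatty acids when glucose is short, as in early lactation of the dairy cow. Inside a mitochondrion BDH1 turns BHB into acetoacetate, OXCT1 adds coenzyme A taken from succinyl-CoA, and the thiolase ACAT1 splits the acetoacetyl-CoA into acetyl-CoA. In the cytosol AACS activates acetoacetate for lipid synthesis, the thiolase ACAT2 joins acetyl-CoA at the start of cholesterol synthesis, and BDH2 is a second hydroxybutyrate dehydrogenase. The SLC16A proteins carry lactate, pyruvate and ketone bodies across membranes together with a proton. Early embryos take up pyruvate and lactate as fuels before they turn to glucose.

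The high BHB group were embryos of Holstein cows with over 0.9 mmol/l of BHB in the blood, and the low BHB group those of Holstein cows under 0.9 mmol/l. All cows were superovulated with FSH and inseminated with sexed semen, and embryos were collected 7 days after the start of oestrus. The labels name morulas and blastocysts together, without proportions, and the total RNA was amplified. How many cows stand behind a replicate is not stated, so p-values measure only the spread between these arrays, which may be technical in part. Each of the 4 two-colour arrays carried 1 high BHB and 1 low BHB RNA, with high BHB in Cy5 on arrays 1 and 2 and in Cy3 on arrays 3 and 4. Ratios are log2 of high over low BHB. A value below 0 means less signal in the high BHB embryos.

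A spot counted as above background where its median intensity lay over a limit set in the same channel from the 153 negative control spots (their mean with 2 SD added). On arrays 1 to 4 this limit was 463, 305, 678 and 572 scanner units in the high BHB channel, against 339.8, 415, 390.4 and 246 units in the low BHB channel. The share of all probes above it was 32.4%, 36.7%, 35.2% and 20.1% in the high BHB channel and 48.2%, 40.4%, 32.4% and 36.5% in the low BHB channel. The high BHB channel of array 4 had both the lowest share and a limit drawn up by a few control spots: 572 units by mean and SD, against 310.5 units by median plus 2 MAD. The SD of the ratios over the tested probes was 0.86 on array 1, against 0.44 to 0.62 on the other 3 arrays. A probe was tested where 1 group's channel was above background on at least 3 of the 4 arrays.

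Markers of the embryonic lineages were measured. Of 10 trophectoderm markers 9 were tested, KRT8 and KRT18 among them, and 5 of 6 inner cell mass markers on the array, with POU5F1, NANOG and SOX2. Of 8 cumulus and granulosa cell markers and 4 endometrial markers, 0 were tested, and of 5 leukocyte markers 1 was: a PTPRC probe that was above background in both groups on all 4 arrays, while the second PTPRC probe was not above it on any. Of the 9 tested trophectoderm markers, 5 had mean ratios above 0 and 4 below (median 0.03). Inner cell mass markers had mean ratios below 0 in 4 of 5 cases (median -0.41), against 56% of the 7312 tested genes. Of these 4, DPPA4 passed the filter through its low BHB channels alone (4 above background, against 1 in high BHB). Its place below 0 is therefore tied to the filter. The NANOG mean of -0.87 included a ratio of -3.38 on array 4. All 5 tested hypoblast markers had mean ratios above 0 (median 0.55), against 3215 of the 7312 tested genes. Each gene was taken at its brightest tested probe in these counts. On arrays 1 to 4 the inner cell mass median was -0.42, 0.13, -0.09 and -0.75. The hypoblast median was 0.39, 1.04, 1.17 and -0.03. The summed intensity of the 5 inner cell mass probes ran between 5229 and 15158 units in high BHB channels, against 8762 to 17260 in low BHB channels. That of the 5 hypoblast probes ran between 36007 and 76522 units in high BHB channels, against 22649 to 71578 in low BHB channels, and FN1 alone made up 30916 to 64754 units of it in high BHB and 18761 to 63397 in low BHB. Their part in the ratios below was not tested.

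Detection split the 10 genes evenly. The filter was passed by 7 probes of 5 genes: 1 each of ACAT1, ACAT2, AACS and SLC16A6, and all 3 of SLC16A1. A further 7 probes were above background in neither channel of any array, and the other 2, for ACAT1 and BDH2, passed the limit in 1 low BHB channel alone. Over all 64 member spots, of which 1 was set aside by the scanner software, 24 were above background in high BHB and 27 in low BHB. With the limit at median plus 2 MAD the counts were 28 in high BHB and 28 in low BHB, and again 7 probes passed the filter. With the limit at the 95th percentile of the control spots they were 29 and 31. There 8 probes passed, ACAT1 EMBV3_21953 among them. Among all non-control probes, 34.3% passed the filter and 41.1% were never above background. Of the 21790 probes with a gene symbol, as all member probes have, 41.3% passed. An array cannot show that a dim transcript is absent, and probes differ in how well they bind, so brightness is not compared between genes.

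**Figure D1:**
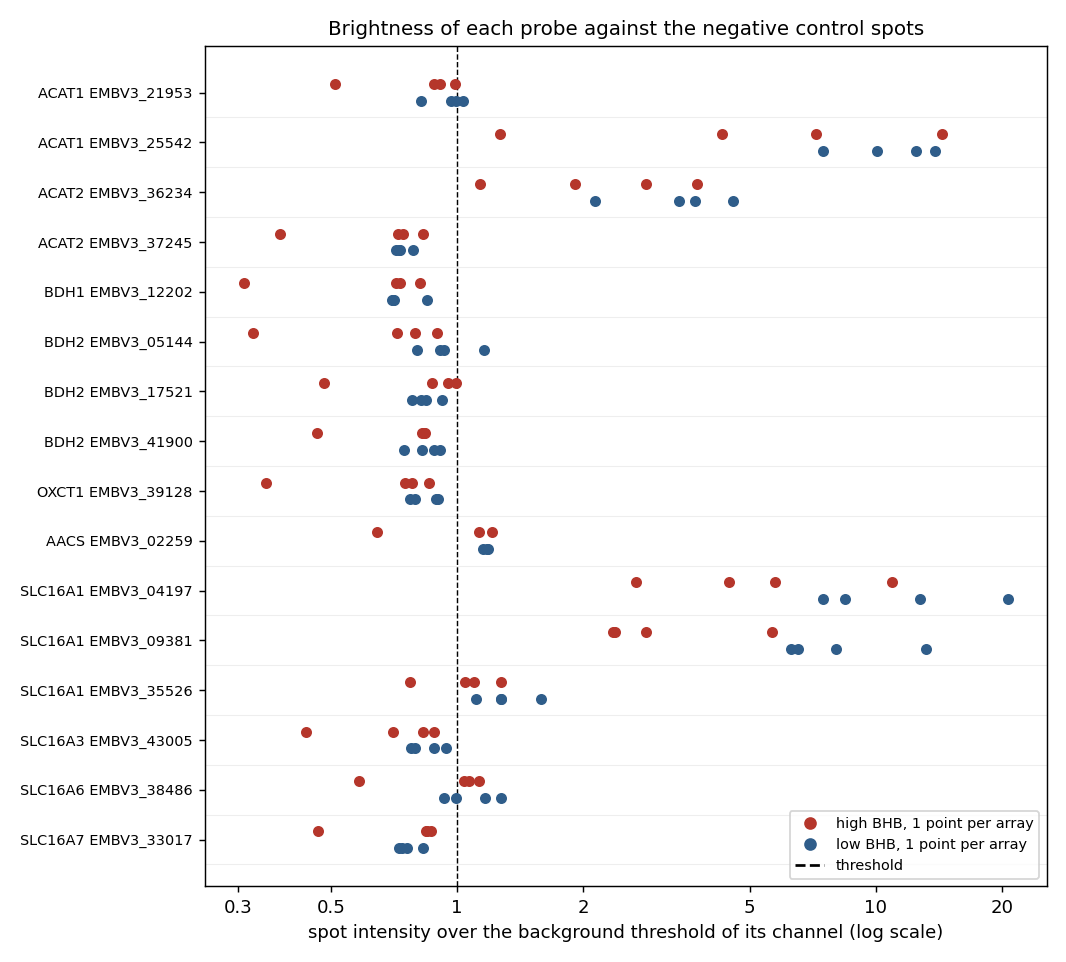
Spot intensity of each of the 16 probes divided by the background limit of its channel (log scale), with 1 point for each array and group. The points of ACAT1 EMBV3_25542, ACAT2 EMBV3_36234 and SLC16A1 EMBV3_04197 and EMBV3_09381 all lie right of the dashed limit, while those of BDH1, OXCT1, SLC16A3 and SLC16A7 all lie left of it.

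Among the mitochondrial enzymes of ketone use, only the last, ACAT1, was bright enough to test. Its probe EMBV3_25542 had intensities of 586, 4381, 4887 and 2449 units in the high BHB channels of arrays 1 to 4, against 2543, 5736, 3930 and 3068 units in the low BHB channels. The high BHB channel of array 1 stood apart, at 1.27 times its background limit, while every other channel was at 4.29 times its limit or more. After normalization the log2 ratios were -1.38, 0.20, -0.09 and -0.62, a mean of -0.48 ± 0.69 (SD, n = 4) or 0.72 times the low BHB level. The ratio was below 0 on 3 of 4 arrays, and limma gave an adjusted p of 0.398 (unadjusted p = 0.117, 95% interval -1.09 to 0.14). Without array 1 the mean was -0.17. Fewer cells of a type and less RNA per cell cannot be told apart in RNA of whole embryos.

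The second ACAT1 probe, EMBV3_21953, was dim. It had 408, 278, 672 and 293 units in the high BHB channels, against 338, 428, 379 and 202 units in the low BHB channels, and passed the limit once, in the low BHB channel of array 2. Its ratios of -0.10, -0.38, -0.10 and 0.18 lay on both sides of 0, with a mean of -0.10 ± 0.23. It did not show the low value of array 1 that the bright probe had.

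BDH1, the enzyme that oxidises BHB itself, had 1 probe, EMBV3_12202. Its intensities were 339, 249, 485 and 177 units in the high BHB channels, against 288, 293, 275 and 172 units in the low BHB channels. Each lay between 0.31 and 0.85 times the limit of its channel, so neither group showed a signal apart from the control spots. The ratios were -0.16, 0.41, -0.03 and -0.50, with a mean of -0.07 ± 0.38 (SD, n = 4) and both signs present.

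OXCT1, whose reaction commits acetoacetate to use as fuel, had 1 probe as well, EMBV3_39128. It gave 347, 262 and 531 units in the high BHB channels of arrays 1 to 3 and 0.35 times the limit on array 4, against 262, 330.0, 351 and 219 units in the low BHB channels, all below the limit. The ratios of -0.27, 0.14, -0.52 and -0.83 averaged -0.37 ± 0.41 and were below 0 on 3 of 4 arrays. In the limma fit over every probe without a filter the unadjusted p was 0.0877 and the adjusted p 0.631. The mean ratios of the negative control spots had a central 95% range of -0.36 to 0.25, and OXCT1 lay just below it.

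**Figure D2:**
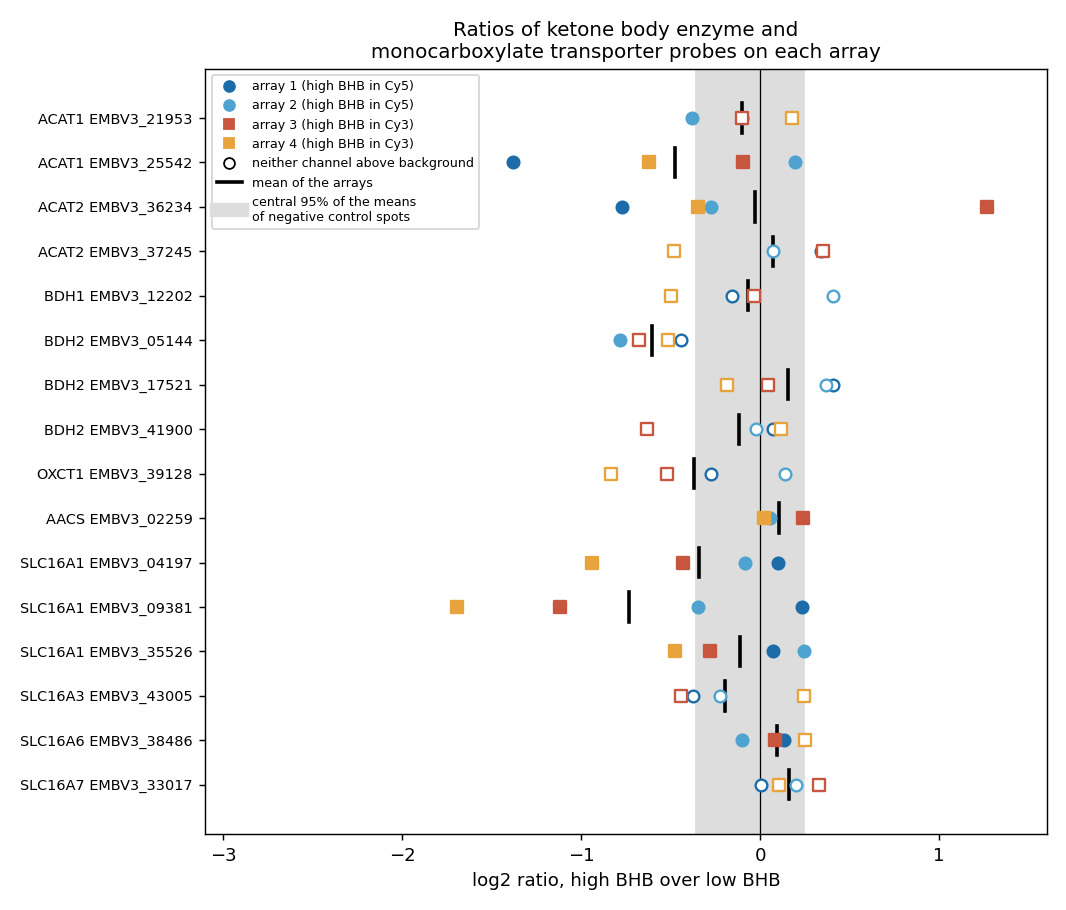
Log2 ratio of high over low BHB for each of the 16 probes on each array (circles for high BHB in Cy5, squares for high BHB in Cy3, open where neither channel was above background), with the mean as a bar and the central 95% range of the negative control means as a grey band from -0.36 to 0.25. The means of ACAT1 EMBV3_25542, BDH2 EMBV3_05144 and SLC16A1 EMBV3_09381 lie left of the band, and that of OXCT1 lies just left of it at -0.37.

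In the cytosol, ACAT2 was measured in both groups on every array. Probe EMBV3_36234 had 526, 863, 2533 and 1092 units in the high BHB channels, against 1151, 1534, 832 and 1123 units in the low BHB channels. Before normalization the high BHB channel was the dimmer one on arrays 1 and 2 and the brighter one on array 3. On array 4 the raw channels were close, though the normalized ratio was lower there than on array 2. Raw channels also differ by dye and labelling. The log2 ratios of -0.77, -0.27, 1.27 and -0.35 averaged -0.03 ± 0.89 (SD, n = 4), with a limma adjusted p of 0.971 and a 95% interval of -0.74 to 0.68. That interval leaves room for a difference of more than 1.5 times either way, and the sign of the mean turned with single arrays: it was -0.46 without array 3 and 0.22 without array 1. The other ACAT2 probe, EMBV3_37245, was never above background (216 to 491 units in high BHB, against 193 to 303 in low BHB) and averaged 0.07 ± 0.39.

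AACS rested on 3 arrays. Its probe EMBV3_02259 was set aside on array 1 by the scanner software, where the spot read 4058 units in the high BHB channel and 25836 units in the low BHB channel. On arrays 2 to 4 it read 344, 822 and 368 units in the high BHB channels, against 479, 462 and 290.0 units in the low BHB channels, between 0.64 and 1.21 times the limits. The ratios there were 0.05, 0.24 and 0.02, a mean of 0.10 ± 0.12 (SD, n = 3), with a limma adjusted p of 0.859. In the authors' deposited table, which keeps the array 1 spot at -1.83, the mean over 4 arrays was -0.37. The direction for AACS therefore depends on that 1 spot.

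BDH2 had 3 probes, and none passed the filter. EMBV3_05144 had 367, 274, 489 and 186 units in the high BHB channels, against 316, 480.0, 355 and 197 units in the low BHB channels. It passed the limit in the low BHB channel of array 2 alone, at 1.16 times the limit. The local background around the spot was 196, 170.0, 84 and 43 units in the high BHB channels, against 42, 59, 156 and 129 units in the low BHB channels, and is part of the ratio. After correction for it the 4 ratios were -0.44, -0.78, -0.68 and -0.51, a mean of -0.60 ± 0.16 (SD, n = 4).

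The BDH2 ratio was below 0 on all 4 arrays, and the 2 dye orientations gave -0.59 with high BHB in Cy3 and -0.61 with high BHB in Cy5. The lowest mean of the 153 negative control spots was -0.53. Among the 28756 probes that did not pass the filter, 0.358% had a mean at or below that of this probe. In the unfiltered limma fit the unadjusted p was 0.00463 and the adjusted p 0.308, so the probe did not pass the test.

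The other BDH2 probes did not share this value. EMBV3_17521 read 275 to 593 units in high BHB, against 192 to 341 in low BHB, and had ratios of 0.41, 0.37, 0.04 and -0.19. EMBV3_41900 read 255 to 560.0 units in high BHB, against 184 to 355 in low BHB, and had ratios of 0.07, -0.02, -0.63 and 0.12. Their means were 0.16 ± 0.28 and -0.12 ± 0.35, on opposite sides of 0, so the 3 probes give no common direction for BDH2.

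Of the transporters, SLC16A1 (MCT1, a widely expressed carrier of lactate, pyruvate and ketone bodies) had 3 probes that passed the filter. All 3 means were below 0, at -0.34, -0.73 and -0.11. EMBV3_09381 had 1105, 1726, 1918 and 1345 units in the high BHB channels, against 2132, 3330.0, 2542 and 3233 units in the low BHB channels. Before normalization the high BHB channel was the dimmer one on all 4 arrays. How many probes of like brightness did the same was not counted, and raw channels also differ by dye and labelling.

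Loess normalization, which sets the typical probe of each brightness to a ratio of 0, gave 0.23, -0.35, -1.12 and -1.70 for EMBV3_09381. The mean was -0.73 ± 0.85 (SD, n = 4), or 0.60 times the low BHB level, and the ratio was below 0 on 3 of 4 arrays. The limma adjusted p was 0.307 (unadjusted p = 0.039, 95% interval -1.42 to -0.05). With array 1 averaged with array 3 and array 2 with array 4, by the title numbers they share, limma gave an adjusted p of 0.0392 at the same mean, past the threshold, but that fit called 1240 of 14946 probes. Leaving out array 4 gave -0.41 and leaving out array 1 gave -1.05.

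EMBV3_04197 had 1241, 3326, 3027 and 3275 units in the high BHB channels, against 2868, 5279, 2917 and 5087 units in the low BHB channels. Its ratios of 0.10, -0.08, -0.43 and -0.94 averaged -0.34 ± 0.46, with a limma adjusted p of 0.479 (95% interval -0.87 to 0.19). Without array 4 the mean was -0.14. EMBV3_35526 stood near the limit, with 507, 389, 710.0 and 442 units in the high BHB channels, against 433, 529, 433 and 390.0 units in the low BHB channels. Its ratios were 0.07, 0.24, -0.28 and -0.48, a mean of -0.11 ± 0.33 (adjusted p = 0.827 in limma).

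The 3 SLC16A1 probes varied together across arrays. In each, both ratios of arrays 3 and 4, with high BHB in Cy3, lay below both ratios of arrays 1 and 2, with high BHB in Cy5. For EMBV3_09381 the means were -1.41 with high BHB in Cy3 and -0.06 with high BHB in Cy5. The same order of arrays held for 14.9% of the tested probes with 4 ratios. A dye term added to the limma fit had an unadjusted p of 0.0188 and an adjusted p of 0.998 for EMBV3_09381. Over all tested probes 3.48% had an unadjusted dye p under 0.05 and 0% an adjusted one. The dye and the RNAs of those arrays cannot be told apart.

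**Figure D3:**
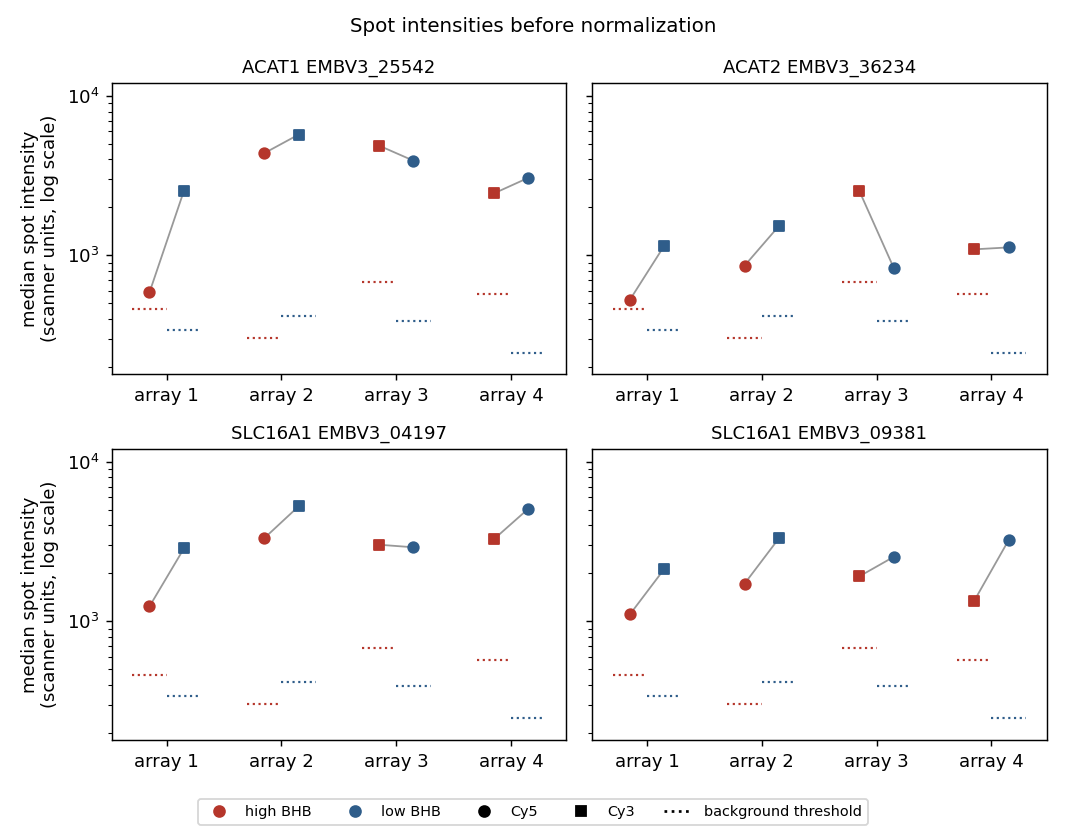
Median spot intensity before normalization (scanner units, log scale) of 4 probes, with the high BHB and the low BHB channel of each array joined by a line, circles for Cy5, squares for Cy3 and dotted lines for the background limits. High BHB is dimmer on all 4 arrays for SLC16A1 EMBV3_09381, though its normalized ratio on array 1 is 0.23. For ACAT1, 586 units on array 1 stands near its limit of 463.

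SLC16A6 (MCT7, an exporter of ketone bodies from the liver in zebrafish) sat at the background limit. Probe EMBV3_38486 had 482, 345, 725 and 333 units in the high BHB channels, against 434, 483, 389 and 229 units in the low BHB channels. It passed the limit on 3 arrays in high BHB and on 2 arrays in low BHB. The ratios of 0.13, -0.10, 0.08 and 0.25 averaged 0.09 ± 0.15 (SD, n = 4), with a limma adjusted p of 0.850 and a 95% interval of -0.36 to 0.55.

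SLC16A3 (MCT4, an exporter of lactate from glycolytic cells) was below the limit in every channel. EMBV3_43005 read 384, 269, 478 and 250.0 units in high BHB, against 320.0, 365, 310.0 and 191 units in low BHB, with ratios of -0.38, -0.22, -0.44 and 0.24 and a mean of -0.20 ± 0.31. SLC16A7 (MCT2, a carrier with high affinity for pyruvate) was below it too. EMBV3_33017 read 390.0, 259, 588 and 266 units in high BHB, against 282, 307, 297 and 179 units in low BHB. Its ratios of 0.00, 0.20, 0.33 and 0.10 averaged 0.16 ± 0.14, within the range of the negative control spots.

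The 7 tested probes were set against the whole array. After Benjamini-Hochberg adjustment in limma 0 of 7 passed, and 2 of 15038 did over the array (0.0133%), EMBV3_38850 and EMBV3_05804, neither with a gene symbol. At an unadjusted p under 0.05, 1 of 7 was lower in high BHB and 0 were higher, against 10.5% lower and 5.12% higher among all tested probes. None of the 7 was below 0 or above 0 on all 4 arrays, against 14.9% below and 9.42% above. That count required 4 ratios, so AACS, with 3 ratios that were all above 0, could not enter it. Of the 9 probes that were not tested, 1 (BDH2) was below 0 on all 4 arrays and 1 (SLC16A7) above, where 4.58% and 6.93% of such probes were. Of those 9 probes, 7 had means inside the central 95% range of the negative control spots.

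Over all 16 probes the median of the mean ratios was -0.11. By array the median of the 16 was 0.00, 0.02, -0.10 and -0.41, against 0.01, 0.00, 0.00 and 0.00 over all non-control probes. The median of the 7 tested probes was 0.08 (6 probes), -0.08, -0.09 and -0.48, against -0.12, -0.01, -0.03 and -0.04 over all tested probes. Array 4 had the lowest median, and 10 of 16 probes were below 0 there and on array 3.

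**Figure D4:**
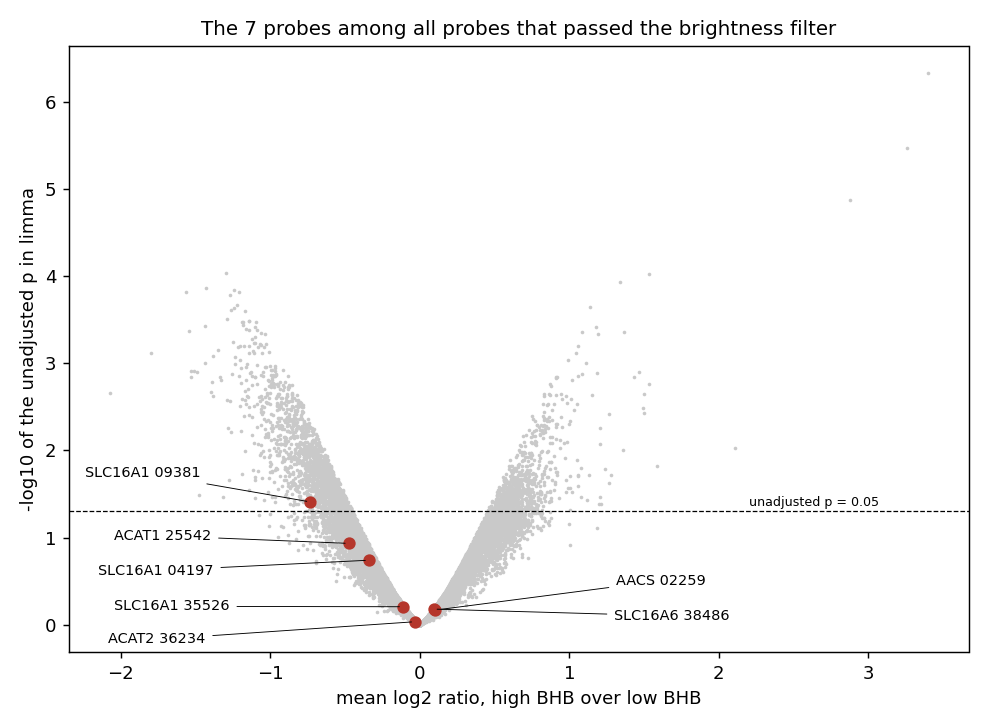
Mean log2 ratio of high over low BHB against -log10 of the unadjusted limma p for the 15038 tested probes (grey), with the 7 probes of ACAT1, ACAT2, AACS, SLC16A1 and SLC16A6 in red. One of the 7, SLC16A1 EMBV3_09381 at -0.73, lies above the dashed line at an unadjusted p of 0.05.

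Genes of the neighbouring reactions were summarised by 1 tested probe each, the brightest. Of the enzymes of ketone production and related acyl-CoA reactions, 11 of 15 listed genes were tested, 7 were above 0 and 4 below, and 0 had an unadjusted p under 0.05. Their median was 0.06, against -0.06 over 7312 tested genes, of which 56% were below 0. Of the receptors and regulators of ketone metabolism 4 of 11 were tested, 3 above 0 and 1 below, with a median of 0.03 and 0 at an unadjusted p under 0.05. After adjustment 0 genes passed in either list, or over the 7312 genes at their brightest probe (0%). At an unadjusted p under 0.05, 12% of those genes were lower and 5.8% higher in high BHB.

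Of 7 listed lactate and pyruvate enzymes 5 were tested, with 1 above 0 and 4 below, against 56% below over all genes, and a median of -0.48. At an unadjusted p under 0.05, 2 of the 5 were lower, against 12% of all genes. LDHB, the lactate dehydrogenase subunit of oxidative tissues, had ratios of -0.96, -0.13, -0.43 and -1.38 (mean -0.73 ± 0.55, limma adjusted p = 0.28). PDHB, a subunit of pyruvate dehydrogenase, had -1.48, -0.39, -0.16 and -0.86 (mean -0.72 ± 0.58, limma adjusted p = 0.28). Both were below 0 on all 4 arrays, and neither passed the adjusted test. The second PDHB probe, EMBV3_04175, averaged -0.59 ± 0.78 and was above 0 on array 4.

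Among the other monocarboxylate transport genes 6 of 16 were tested, 3 above 0 and 3 below, with a median of -0.09. MPC2, a subunit of the mitochondrial pyruvate carrier, had ratios of -1.59, -0.40, -0.11 and -0.51 (mean -0.65 ± 0.65, limma adjusted p = 0.30). SLC16A11, a further member of the transporter family, had -0.21, 1.02, 1.08 and 1.01 (mean 0.72 ± 0.63, limma adjusted p = 0.28). It was the only tested gene of the 4 pathway lists with an unadjusted p under 0.05 and a higher level in high BHB. Those lists held 11, 6, 5 and 4 tested genes. Of the 6 monocarboxylate transport genes 1 was higher and 1 lower at that level, against 5.8% and 12% of all 7312 tested genes.

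The genes most like a member were those with the smallest root mean square difference from its ratios over the 4 arrays, each taken at its brightest tested probe. MDP1 (0.09), F2RL1 (0.10) and MRPL42 (0.11) were nearest to ACAT1. STK11IP (0.09), UBAP1 (0.17) and WDR48 (0.17) were nearest to ACAT2. MMP14 (0.05), MRPS17 (0.09) and HMGB3 (0.09) were nearest to SLC16A1 EMBV3_04197, and PMPCA (0.06), PAGR1 (0.06) and ITPR3 (0.06) to SLC16A6. These distances describe 4 arrays and were chosen as the smallest among 7312 genes.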

How the data were processed

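Per the file headers, the authors' scanner output gives a raw intensity and a local background for every spot and dye. No scanner program is named in it. A table of log2 ratios was deposited as well, and limma is the tool that the submitters' processing notes list. Against the scanner ratios, turned to high over low BHB, the deposited log2 values correlated at 0.967 to 0.995 over tested probes (array medians 0.00 to 0.02).

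Spots set aside by the scanner software (95 to 114 per array) were left out. Median intensities were corrected with normexp (offset 50) and normalized by loess (span 0.3, control spots at weight 0) in limma 3.58.1 (R 4.3.3). All ratios (high over low BHB, signs changed on arrays 3 and 4) were fitted with lmFit and eBayes, intercept only, with Benjamini-Hochberg adjustment over 15038 probes. The fit was tested on simulated data. Gene names came from the platform annotation (21790 probes with 1 symbol, 20025 of them current and 1524 updated from a synonym). Different probes of a gene were kept apart. Sequences and coordinates were not used here.

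The members and gene lists were chosen with earlier results of these data known. Named were all probes of the members and the 3 genes most like each member. Pathway-list genes were named at an unadjusted p under 0.05 or a mean past 0.5 in size. Marker genes were given as counts, with examples chosen for their lineage or to show a limit of the counts. Alternatives covered the background correction, the normalization, the deposited values, title numbers (averaged, or as a block chosen after seeing the data), pairing, dye, filters and each array left out.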

Additional observations from a re-analysis of the deposited data

Results flagged for a closer look

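Dixon's test was run on the members, and on listed pathway and marker genes with an unadjusted p under 0.05 or a mean past 0.5 in size. In SLC16A11 and in NANOG 1 array stood apart, and in no member did so. The SLC16A11 ratio was -0.21 on array 1, against 1.02, 1.08 and 1.01 on arrays 2, 3 and 4, and the gap to array 1 made up 0.943 of the range, over the 95% critical value for 4 samples. The probe was above background on 3 arrays in high BHB and on 4 in low BHB. NANOG, an inner cell mass marker, had -0.42, 0.13, 0.18 and -3.38 on arrays 1 to 4, and the gap to array 4 made up 0.834 of the range. Chance flags about 1 in 20 groups at that level. The listed genes were picked by their ratios on the same arrays, so that rate does not hold for them. NANOG entered through its mean of -0.87, which includes array 4. Listed genes outside that choice were not flagged, whatever their gap.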

How the results depend on the processing

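Fits with another filter, background limit or pairing, a dye term or the title numbers used the same ratios. Apart from AACS, their mean ratios equalled the main ones and could not change sign. Of 227 alternative values of the 16 probes, those included, 215 kept their sign. Of the 12 that did not, 6 were of 3 untested probes (ACAT2 EMBV3_37245, BDH1 and BDH2 EMBV3_41900) and at most 0.072 in size. ACAT2 EMBV3_36234 (-0.03) turned to 0.0017 with no background correction, and with 1 array left out ran between -0.46 and 0.22 (above 0 without array 1, 2 or 4). AACS turned to -0.37 in the deposited log2 values. SLC16A1 EMBV3_35526 ran between -0.23 and 0.011 with 1 array left out, above 0 without array 4. BDH2 EMBV3_05144 moved to -0.37 with the set-aside spots in the normexp fit and to -0.30 with no background correction; it stayed below the lowest negative control mean there (-0.32 and -0.18). Averaging arrays that share a title number gave SLC16A1 EMBV3_09381 an adjusted p of 0.0392 at the same mean of -0.73, and called 1240 of 14946 probes. In their descriptions the 4 arrays are separate biological replicates, and that fit has 1 residual degree of freedom per probe.

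Median centring in place of loess moved the median of the tested probes to -0.22, against -0.05, and the share of lower calls at an unadjusted p under 0.05 to 98%, against 67.2%. It moved ACAT1 to -0.94, ACAT2 to -0.40, SLC16A1 EMBV3_04197 to -0.82 and EMBV3_09381 to -1.21. Requiring both channels above background on all arrays gave 52.7% lower.

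Against 2 probes called, 0 were called with the set-aside spots in the normexp fit (2174 at an unadjusted p under 0.05), with median centring (3119) and with no pairing within arrays (902). With no background correction, the dye term, no filter and the 95th percentile limit 1 was called each. Leaving out 1 array gave 0 to 2, with 0 without array 2 (2175 unadjusted) and without array 4 (1238). The median over the 16 probes ran between -0.17 and -0.06 in those fits. The cause was not tested. With the title number as a replicate block, chosen after seeing the data, 2 probes were called, the median over the 16 probes was -0.11, and SLC16A1 EMBV3_09381 had an adjusted p of 0.389. The block changed no call of a tested member probe. The number of arrays limits the precision, and at the main background limit 9 of 16 probes lacked the signal that a test needs. At the 95th percentile limit 8 probes were tested, and the added one, ACAT1 EMBV3_21953, had a limma adjusted p of 0.84.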
